A study of Mus musculus with 22 samples.

Results

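The genes described are the 9 nuclear receptor genes of the PPAR, RXR and ERR families in mouse brown adipose tissue (BAT): *Ppara*, *Pparg*, *Ppard*, *Rxra*, *Rxrb*, *Rxrg*, *Esrra*, *Esrrb* and *Esrrg*. They were listed by name, with earlier results of these data known, out of 55487 gene identifiers in the count tables. All 9 had enough reads to be tested in both cohorts. The study compared wild-type mice (WT) with mice that lack CPEB2 in every tissue (KO), a protein that binds mRNA and regulates its translation, and WT littermates from heterozygous crosses served as controls. In the untreated cohort, BAT of 5 WT and 5 KO mice was collected between 21 and 25 weeks of age. According to the paper, food was withheld from these mice for some hours before collection. In the other cohort, an adeno-associated virus (AAV) was injected into the interscapular BAT at 16 weeks and the tissue was taken 9 weeks later, at 25 weeks. The paper states no food withdrawal for this cohort. Each of these mice received 2e+10 vector genomes in 30 µl of saline, 10 µl at each site, and no uninjected mouse stood beside them in this cohort. The virus carried either green fluorescent protein (AAV-GFP) or flag-tagged mouse PRDM16 (AAV-PRDM16), a transcriptional coregulator of brown fat identity, and each virus was given to 3 WT and 3 KO mice, which makes 4 groups. The promoter that drives the viral genes is not given in the sources used here. All mice were labelled male and ate chow with 9% fat, and every library came from 1 mouse.

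Nuclear receptors are transcription factors that bind DNA directly and, in many cases, are switched on by small fat-soluble ligands. PPARs respond to fatty acids and their derivatives and bind DNA together with an RXR partner, at paired copies of the half-site AGGTCA with a base between them. ERRs have no established natural ligand, bind an extended half-site, TCAAGGTCA, and depend on coactivators such as PGC-1α. In brown fat, PPARγ is required for adipocytes to form, PPARα is linked to fatty acid oxidation, and ERRs are linked to the mitochondrial genes that support heat production.

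Since these receptors share the half-site AGGTCA, the start regions of their own genes were searched for it. RefSeq start sites of assembly GRCm38.p6 gave 18 windows over the 9 genes, each running from 250 bases before to 50 bases after a start. The half-site was searched on both strands and was present in 4 windows (22.2%), beside 16.3% of 32851 windows of the same length over all genes. These 4 windows belong to *Pparg*, *Rxra* and *Rxrg*, and the 5 sites are shown because they are the only places where the shared half-site occurs near a receptor's own start. Capitals mark the half-site, written as TGACCT where it reads on the other strand, with 9 bases on each side, and all lines give the plus strand, on which the 3 genes lie.
*Pparg*, start 1, chr6:115361107-115361130: cgccgcctcAGGTCAgagtcgccc
*Pparg*, start 2, chr6:115362331-115362354: gacgcgaggAGGTCAagaaggggc
*Rxra*, start 2, chr2:27709196-27709219: aaatgggtgTGACCTgagtaatgg
*Rxra*, start 2, chr2:27709235-27709258: tggcaggaaAGGTCAgtcactctc
*Rxrg*, start 2, chr1:167618168-167618191: ggggttgaaAGGTCAgctgaaagc

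The half-site of *Pparg* begins 28 bases before the first start and 9 bases before the second, and that of *Rxrg* begins 88 bases before its start. The pair in *Rxra* begins 87 and 48 bases before the start, and the copies point in opposite directions. The extended ERR site TCAAGGTCA, which contains AGGTCA, was in 0 of the 18 windows and in 0.423% of all windows. The paired site AGGTCANAGGTCA was in 0 of 18 and in 0.0396% of all windows. These are matches of letters in short windows, and the data hold no measurement of binding.

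An untreated library held 55320927 to 162721202 counts and an AAV library 61636889 to 143005309, and 24.64% to 38.88% of counts lay on the mitochondrial genome. Each of the 8 receptors other than *Esrrb* had at least 324 reads in every library, and *Esrrb* had 64 to 314. All 8 brown adipocyte markers had reads in every library. *Cpeb2* stood at 10.5 to 14.0 CPM (counts scaled to equal library size, here with TMM factors) in the WT and at 4.33 to 5.55 CPM in the KO libraries of the AAV cohort. In the untreated cohort it stood at 7.69 to 14.3 CPM in WT and at 2.10 to 5.78 CPM in 4 KO libraries, while the library labelled KO replicate 1 had 11.65 CPM. *Prdm16* stood at 45.9 to 128 CPM under AAV-PRDM16 and at 23.9 to 40.2 CPM under AAV-GFP. The lowest value under AAV-PRDM16 was that of WT replicate 3, beside 121.9 and 118.9 CPM in WT replicates 1 and 2. That library takes part in every comparison that includes WT + AAV-PRDM16. Y-linked transcripts summed to at least 77.0 CPM in WT replicates 1, 2 and 4 and KO replicate 2 of the untreated cohort and to at most 1.17 CPM in the other 6, where *Xist* stood at 104 to 305 CPM, against the label of male mice. Of the 4 libraries with high Y-linked sums, WT replicate 4 (115.6 CPM) also had 14.0 CPM of *Xist* and KO replicate 2 (77.0 CPM) had 1.65 CPM, while WT replicates 1 and 2 had at most 0.0876 CPM. In the AAV cohort every library had 153.8 to 193.8 CPM of Y-linked transcripts and at most 0.268 CPM of *Xist*. Skeletal muscle markers, 13 in all, summed to 59.2 to 3561 CPM in untreated WT and to 44.9 to 7378 CPM in untreated KO libraries. In bulk tissue, fewer cells of a type and less RNA per cell cannot be told apart. The p-values measure the spread between these mice only.

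To compare the receptors with each other, counts were divided by summed exon length and scaled to an equal total in every library (TPM). *Pparg* ranked highest in every group, with a mean of 82.1 ± 18.2 TPM (SD, n = 5) in untreated WT and 88.5 ± 22.8 TPM (n = 5) in untreated KO. *Esrrb* ranked lowest in every group, at 0.251 ± 0.118 TPM in untreated WT and 0.462 ± 0.197 TPM in untreated KO. In untreated WT, *Esrra* (40.5 TPM) and *Ppara* (40.2 TPM) followed *Pparg*, then *Rxrb* (14.3), *Rxra* (13.7), *Rxrg* (11.6), *Esrrg* (5.31) and *Ppard* (3.71 TPM). Only the neighbours *Pparg* and *Esrra*, and *Ppard* and *Esrrb*, had ranges that did not overlap in that order. *Ppara* ranged from 9.78 to 86.7 TPM within untreated WT, so its rank there rested on which mouse was read. In untreated KO the order was *Pparg*, *Esrra* (65.5), *Rxrb* (24.3), *Rxrg* (17.5), *Rxra* (17.0), *Ppara* (13.1), *Ppard* (6.06), *Esrrg* (2.26) and *Esrrb*. The lowest 3 had ranges apart from one another, while each of the other neighbours overlapped.

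The order was similar in the 4 AAV groups. *Pparg* averaged 102 to 110 TPM, *Ppara* 73.1 to 84.4 TPM and *Esrra* 38.2 to 46.4 TPM over the 4 groups, and *Esrra* stood apart from *Ppara* and from the RXR genes in each. *Pparg* and *Ppara* overlapped in both AAV-GFP groups and not in the AAV-PRDM16 groups. *Rxra* and *Rxrb* followed at 15.0 to 20.6 TPM. *Rxrb* led in the WT groups (17.9 TPM in both) and *Rxra* in the KO groups (19.8 and 20.6 TPM), and these neighbours overlapped in both AAV-GFP groups only. The remaining means were 10.0 to 13.2 TPM for *Rxrg*, 9.08 to 10.3 TPM for *Esrrg* and 4.35 to 4.75 TPM for *Ppard*. The cohorts are separate tables that were scaled separately, so no level was tested between them.

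**Figure D1:**
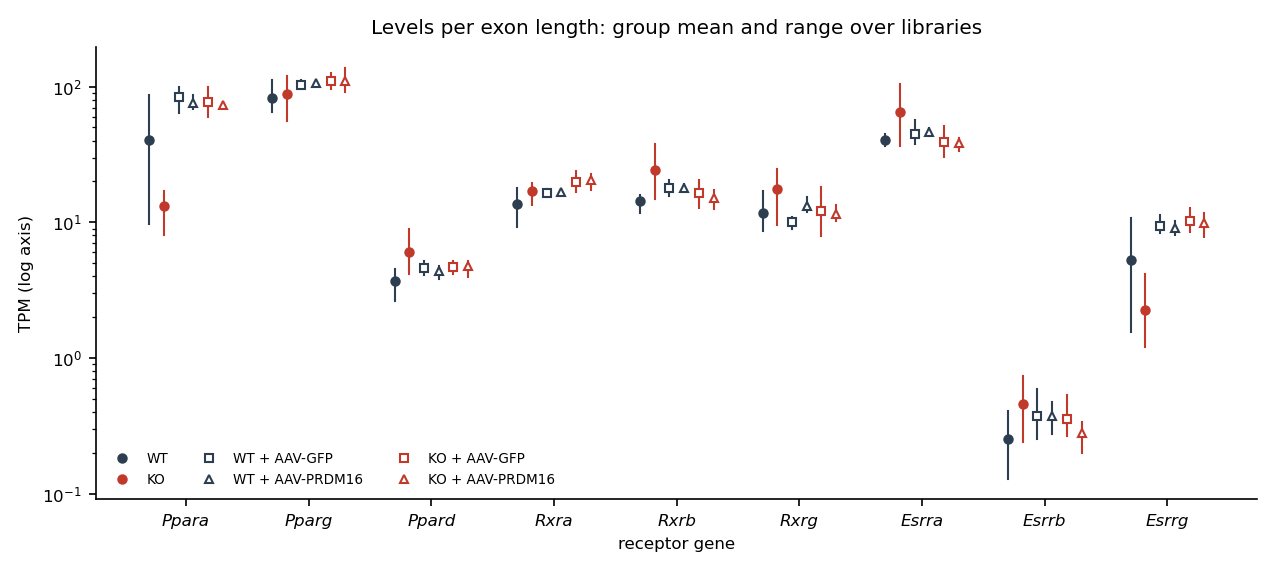
Mean level of each receptor gene in TPM (log axis) in each of the 6 groups, with lines from the lowest to the highest library of the group. *Pparg* lies at the top and *Esrrb* at the bottom in every group, and *Ppara* has the widest range in untreated WT, from 9.78 to 86.7 TPM.

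Among the receptors, the largest differences between untreated KO and WT were in *Ppara*, the fatty acid sensor tied to fat oxidation, and *Esrrg*, an ERR with high activity in oxidative tissues. Both means were lower in KO, and neither difference passed the test. *Ppara* (chr15:85734983-85802819, plus strand, GRCm38) was read at 206, 198, 31.3, 40.7 and 36.4 CPM in WT replicates 1 to 5. In KO replicates 1 to 5 it was read at 39.8, 26.6, 35.6, 25.7 and 27.8 CPM. WT replicates 1 and 2 stood far above the rest, and the other 3 WT libraries lay within or just above the KO range. WT replicates 1 and 2 were also the only untreated libraries with a high Y-linked sum and at most 0.0876 CPM of *Xist*. All 12 AAV libraries had high Y-linked sums and little *Xist* too, with *Ppara* at 162 to 227 CPM. The part of this profile in the *Ppara* and *Esrrg* levels was not tested. The log2 fold change of KO over WT was -1.72 (SE 0.54, 95% interval -2.89 to -0.55), with an adjusted p of 0.305 by edgeR's quasi-likelihood test. Without WT replicates 1 and 2 it was -0.16 (adjusted p 0.877). With either one left out it was -1.30 or -1.34, and with a covariate for whether Y-linked transcripts were present it was -0.81 (adjusted p 0.606). That covariate set WT replicate 4 and KO replicate 2, which also had *Xist*, together with WT replicates 1 and 2.

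*Esrrg* (chr1:187608791-188214885, plus strand) was read at 46.1, 34.4, 8.03, 11.1 and 12.4 CPM in WT replicates 1 to 5. In KO replicates 1 to 5 it was read at 16.7, 7.76, 6.90, 6.43 and 4.88 CPM. The same WT libraries were high as for *Ppara*, and KO replicate 1 lay above 3 of the WT libraries. Its log2 fold change was -1.39 (SE 0.51, 95% interval -2.49 to -0.29, adjusted p 0.305). Without WT replicates 1 and 2 it was -0.25 (adjusted p 0.884). It was -0.79 after a correction for GC content and gene length, and also -0.79 with the Y-linked covariate. Over the 10 untreated libraries the log2 CPM of *Ppara* and *Esrrg* had a Pearson's r of 0.932, over points that share library, depth and base composition and of which 2 lie far from the rest. Over the 12 AAV libraries r was -0.0793.

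**Figure D2:**
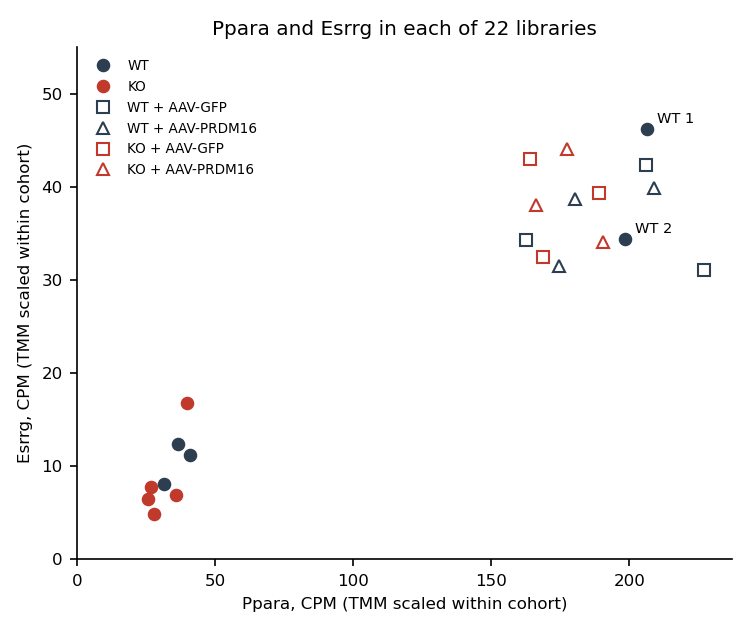
CPM of *Ppara* (horizontal axis) and *Esrrg* (vertical axis), 1 point per library, with CPM scaled within each cohort, untreated libraries as filled circles and AAV libraries as open symbols. WT replicates 1 and 2 of the untreated cohort lie far above the other 8 untreated libraries in both genes, while the AAV libraries form a single cloud at 162 to 227 CPM of *Ppara* and 31.0 to 44.1 CPM of *Esrrg*.

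Differences between KO and WT in both genes were small beside the spread in the AAV cohort. *Ppara* stood at 227, 206 and 162 CPM in WT + AAV-GFP, at 175, 209 and 180 CPM in WT + AAV-PRDM16, at 164, 169 and 189 CPM in KO + AAV-GFP and at 177, 166 and 191 CPM in KO + AAV-PRDM16. The ranges overlapped in each comparison. Over both viruses the KO over WT log2 fold change was -0.13 (95% interval -0.33 to 0.06, adjusted p 0.474). *Esrrg* stood at 31.0, 42.3 and 34.2 CPM in WT + AAV-GFP, at 31.4, 39.9 and 38.7 CPM in WT + AAV-PRDM16, at 42.9, 32.5 and 39.3 CPM in KO + AAV-GFP and at 44.1, 38.1 and 34.0 CPM in KO + AAV-PRDM16. Its log2 fold change over both viruses was 0.09 (95% interval -0.15 to 0.32, adjusted p 0.731). These intervals do not reach the size of the untreated difference, and the comparison of the cohorts was not tested.

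*Pparg* (chr6:115360951-115490399, plus strand), the receptor that drives fat cell formation, is transcribed as isoforms that gene counts cannot tell apart. It was read at 147, 114, 199, 211 and 221 CPM in untreated WT and at 181, 145, 179, 208 and 107.5 CPM in untreated KO. The ranges overlapped almost fully, and the log2 fold change was -0.12 (SE 0.26, adjusted p 0.808). WT replicates 1 and 2, which were highest for *Ppara*, were the lowest WT libraries for *Pparg*. The share of *Ppara* in the summed TPM of the PPAR genes ran from 10.45% to 55.63% in untreated WT (median 12.49%) and from 8.33% to 14.68% in untreated KO. In the AAV groups it lay between 33.15% and 49.41%. *Pparg* there stood at 171, 199 and 188 CPM in WT + AAV-GFP, 194, 190 and 227 in WT + AAV-PRDM16, 228, 176 and 185 in KO + AAV-GFP and 179, 162.6 and 288 CPM in KO + AAV-PRDM16. KO + AAV-PRDM16 replicate 3 was the highest of the 12, and the groups overlapped. The log2 fold change of genotype over both viruses was 0.06 (adjusted p 0.862), and without that library it was -0.09.

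*Ppard* (chr17:28232700-28301474, plus strand), the most widely expressed PPAR across tissues, was read at 22.2, 20.2, 18.8, 19.9 and 18.4 CPM in untreated WT and at 28.8, 20.6, 24.1, 26.1 and 43.3 CPM in untreated KO. All KO libraries but replicate 2 lay above every WT library. This gave a log2 fold change of 0.52 (SE 0.23, 95% interval 0.03 to 1.01, adjusted p 0.308). In the AAV cohort the 12 libraries lay between 19.6 and 23.4 CPM, and the genotype log2 fold change was 0.04 (adjusted p 0.834).

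**Figure D3:**
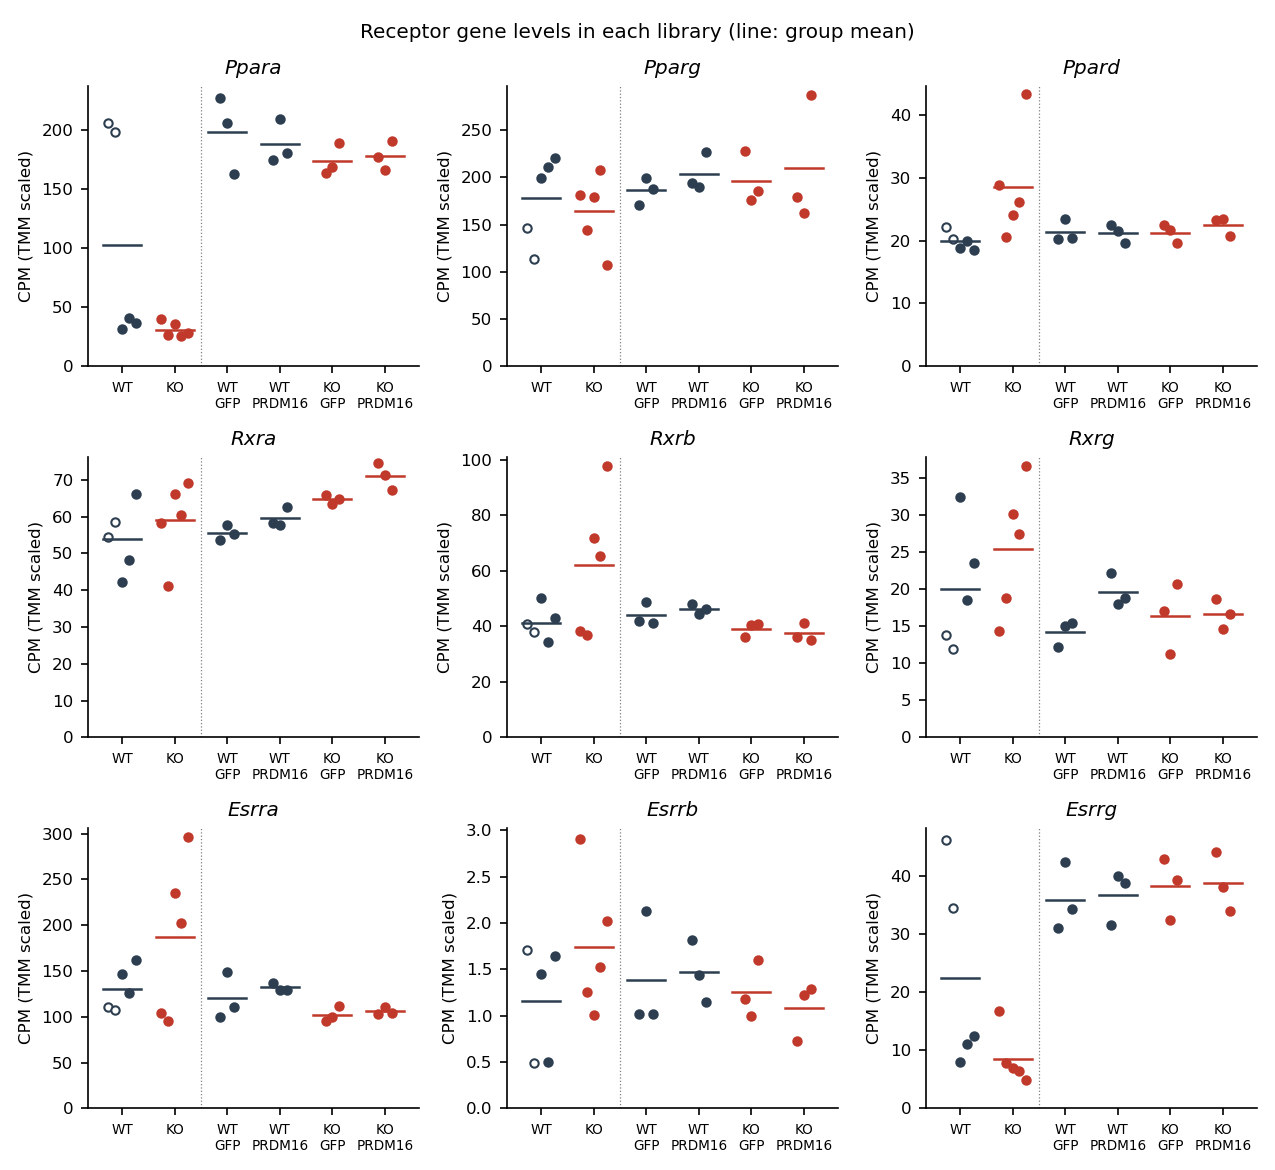
CPM of each receptor gene in all 22 libraries (linear axes from 0, 1 point per library, lines for group means, untreated groups left of the dotted line), with WT dark, KO red, and untreated WT replicates 1 and 2 as open circles. The open circles are high for *Ppara* and *Esrrg*, and for *Rxra* the 6 KO libraries of the AAV cohort lie above its 6 WT libraries.

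RXRs are the obligate partners of the PPARs and of several other receptors. *Rxra* (chr2:27676440-27762957, plus strand) was the receptor gene with the smallest adjusted p of the AAV cohort. It was read at 53.7, 57.8 and 55.4 CPM in WT + AAV-GFP, at 58.3, 57.8 and 62.5 CPM in WT + AAV-PRDM16, at 65.8, 63.4 and 64.9 CPM in KO + AAV-GFP and at 74.5, 71.3 and 67.1 CPM in KO + AAV-PRDM16. All 6 KO libraries lay above all 6 WT libraries. Over both viruses *Rxra* was 1.18-fold higher in KO (log2 fold change 0.24, SE 0.06, 95% interval 0.11 to 0.36), with an adjusted p of 0.0522, just outside the threshold of 0.05. DESeq2 (adjusted p 0.00028), limma-voom (0.0189) and edgeR with RLE size factors (0.0482) placed it inside. It was between 0.21 and 0.28 (log2) in 21 other settings, with adjusted p-values from 0.00028 to 0.393, the latter with a macrophage score as covariate.

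In TPM, which is scaled to an equal total without TMM factors, the libraries were less separate. A gene's length is the same in every library, so this difference from CPM lies in the scaling of the libraries. *Rxra* stood at 16.6, 17.7 and 15.2 TPM in WT + AAV-GFP and at 16.8, 18.8 and 23.8 TPM in KO + AAV-GFP, so that these groups overlapped. Under AAV-PRDM16 the KO libraries, at 22.6, 21.8 and 17.4 TPM, stayed above the WT libraries, at 16.9, 16.7 and 16.7 TPM. In the untreated cohort it was read at 54.4, 58.6, 42.1, 48.1 and 66.0 CPM in WT and at 58.3, 41.0, 66.2, 60.4 and 69.2 CPM in KO. The ranges overlapped, and the log2 fold change was 0.13 (SE 0.22, adjusted p 0.743), which turned to -0.26 (adjusted p 0.754) after the GC and length trend was removed.

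*Rxrb* (chr17:34031812-34038399, plus strand), the RXR found in most tissues, had the opposite sign in the AAV cohort. It was read at 41.9, 48.7 and 41.2 CPM in WT + AAV-GFP, at 47.9, 44.4 and 46.3 CPM in WT + AAV-PRDM16, at 36.1, 40.4 and 40.8 CPM in KO + AAV-GFP and at 36.2, 41.3 and 35.0 CPM in KO + AAV-PRDM16. The KO libraries lay below the WT libraries within each virus. The log2 fold change over both viruses was -0.23 (SE 0.07, 95% interval -0.39 to -0.08) and did not pass the test (adjusted p 0.0995, DESeq2 0.0329). After the trend in GC content and length was removed it was -0.13 (adjusted p 0.302), and the exons of *Rxrb* have 61.4% GC, the 98th percentile of the genes tested.

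The ratio of *Rxra* to *Rxrb* CPM was 1.19 to 1.35 in the 6 WT libraries of the AAV cohort and 1.57 to 2.06 in its 6 KO libraries. This ratio does not change with library scaling, but it can change with the GC and length trend. It restates the opposite differences of *Rxra* and *Rxrb* given above, in the same libraries. How many other pairs of genes separate in this way was not counted. The untreated ranges of this ratio overlapped, with 0.837 to 1.55 in WT and 0.707 to 1.53 in KO. *Rxrb* was read at 40.7, 37.8, 50.3, 34.4 and 43.2 CPM in untreated WT and at 38.1, 36.9, 71.8, 65.2 and 97.8 CPM in untreated KO. KO replicates 3, 4 and 5 were high and KO replicates 1 and 2 lay within the WT range. The untreated log2 fold change of *Rxrb* was 0.59 (SE 0.28, adjusted p 0.322), and it was -0.003 after the GC and length trend was removed.

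*Rxrg* (chr1:167598384-167639623, plus strand), the RXR with the most restricted expression, was the receptor that differed most between the viruses in WT mice. It was read at 12.2, 15.0 and 15.5 CPM in WT + AAV-GFP and at 22.2, 17.9 and 18.7 CPM in WT + AAV-PRDM16. These groups did not overlap. The log2 fold change of AAV-PRDM16 over AAV-GFP was 0.46 (SE 0.19, 95% interval 0.04 to 0.89), which did not pass the test (adjusted p 0.632). In KO mice it was read at 17.0, 11.3 and 20.7 CPM under AAV-GFP and at 18.7, 14.7 and 16.7 CPM under AAV-PRDM16, and these groups overlapped, with a log2 fold change of 0.03 (95% interval -0.39 to 0.45, adjusted p 1). The KO value of *Rxrg* ran from -0.18 without KO + AAV-GFP replicate 2 to 0.36 by limma-voom, and was 0.23 without KO + AAV-GFP replicate 3. The difference between the 2 virus effects was -0.43 (SE 0.27, adjusted p 1), and it ran from -0.64 without KO + AAV-GFP replicate 2 to -0.05 by limma-voom, with -0.23 without KO + AAV-GFP replicate 3. Untreated *Rxrg* was read at 13.8, 11.9, 32.4, 18.5 and 23.5 CPM in WT and at 14.3, 18.8, 30.1, 27.4 and 36.5 CPM in KO, with overlapping ranges (log2 fold change 0.34, adjusted p 0.565, and -0.09 after the GC and length trend was removed).

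*Esrra* (chr19:6910977-6921813, minus strand), the main ERR of mitochondrial gene control, was lower on average in KO in the AAV cohort. It was read at 99.7, 149 and 111 CPM in WT + AAV-GFP, at 137, 129 and 130 CPM in WT + AAV-PRDM16, at 95.4, 99.6 and 112 CPM in KO + AAV-GFP and at 103, 110 and 104 CPM in KO + AAV-PRDM16. KO lay below WT without overlap under AAV-PRDM16, and WT + AAV-GFP replicate 2 stood above the rest of its group. Over both viruses the log2 fold change was -0.27 (SE 0.09, 95% interval -0.48 to -0.07, adjusted p 0.14), and it ran from -0.42 to -0.18 in 21 other settings. Under AAV-GFP it was -0.23 (adjusted p 0.657), and -0.04 without WT + AAV-GFP replicate 2.

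Untreated *Esrra* was read at 111, 107, 147, 126 and 162 CPM in WT and at 105, 95.8, 235, 202 and 296 CPM in KO. KO replicates 3, 4 and 5 were above every WT library and KO replicates 1 and 2 below, and the log2 fold change was 0.52 (SE 0.32, adjusted p 0.396). The brown adipocyte markers summed to 4937, 3920, 9820, 10570 and 12140 CPM in KO replicates 1 to 5. In WT replicates 1 to 5 they summed to 4485, 4484, 7718, 5762 and 8322 CPM. KO replicates 1 and 2 had the highest skeletal muscle sums, 6268 and 7378 CPM. The part of tissue make-up in the untreated *Esrra* and *Rxrb* levels was not tested. The log2 CPM of *Rxrb* and *Esrra* had an r of 0.948 over the 10 untreated and of 0.864 over the 12 AAV libraries, over points that share library and depth. The exons of *Esrra* share 73 bases with *Trmt112* on the opposite strand and 91 bases with *Mir6990*, and the strand handling of the counts is not given in the sources used here.

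*Esrrb* (chr12:86361117-86521628, plus strand), known from stem cells and early development, was near the lower limit of what these libraries measure. It was read at 0.490 to 1.71 CPM (median 1.45) in untreated WT and at 1.002 to 2.90 CPM (median 1.53) in untreated KO. In the AAV cohort the 12 libraries lay between 0.723 and 2.13 CPM. KO over WT had a log2 fold change of 0.59 (SE 0.47, adjusted p 0.488) in the untreated cohort and -0.29 (SE 0.25, adjusted p 0.596) in the AAV cohort over both viruses.

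**Figure D4:**
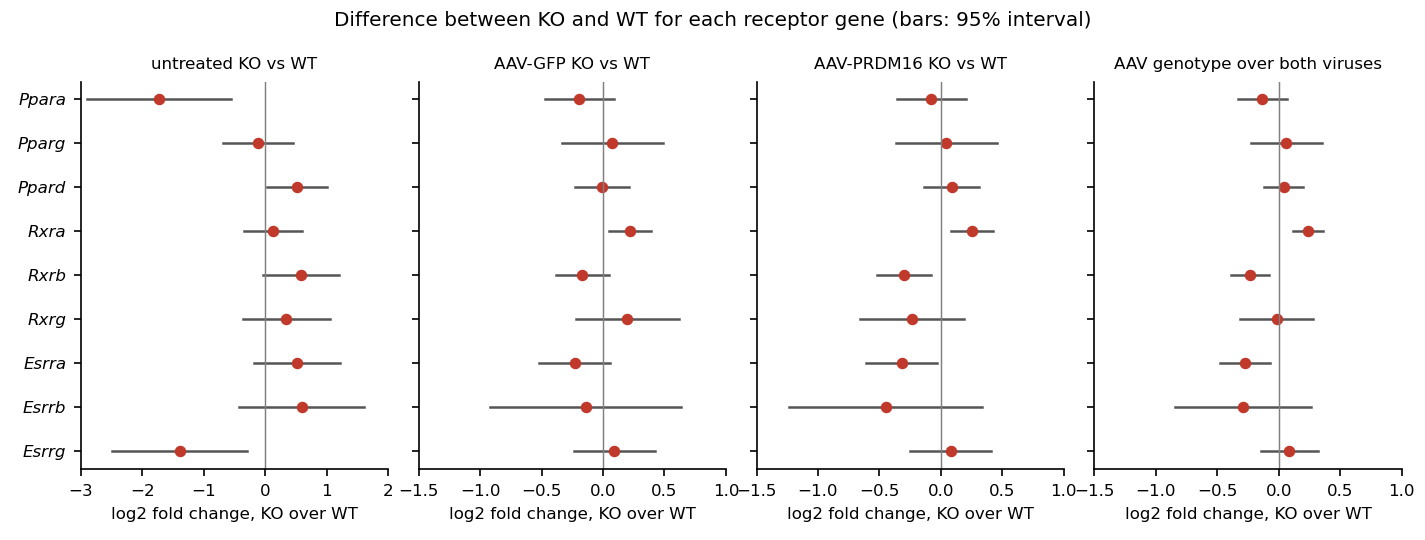
Log2 fold change of KO over WT with its 95% interval for each receptor gene, in 4 panels for the untreated cohort (on a wider axis), AAV-GFP, AAV-PRDM16, and genotype over both viruses. *Ppara* (-1.72) and *Esrrg* (-1.39) lie lowest in the untreated cohort and near 0 in the AAV panels, and over both viruses the intervals of *Rxra*, *Rxrb* and *Esrra* lie to one side of 0.

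None of the 9 receptor genes was called at an adjusted p of 0.05 in any of 9 comparisons by edgeR. In untreated KO against WT, 0 of 17869 genes were called (0%), and at an unadjusted p under 0.05 the receptors counted 3 (*Ppara*, *Ppard* and *Esrrg*) beside 15.9% of all genes. No receptor had groups that did not overlap there, beside 1.4% of all genes. By the looser rule of the study, at least 2-fold lower with an adjusted p up to 0.5, *Ppara* and *Esrrg* were 2 of 844 genes by edgeR (4.72% of the 17869 tested). The paper, which used another tool (iDEP), reports fewer downregulated genes by its rule. DESeq2 and limma-voom called 0 receptors at 0.05 in the untreated cohort.

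Under AAV-GFP, 10 of 18899 genes (0.0529%) were called between KO and WT. With a WT library left out the count was 3, 2 and 2 for replicates 1 to 3, and with a KO library left out it was 0, 0 and 6. Of the receptors, 1 (*Rxra*) had an unadjusted p under 0.05, beside 9.18% of all genes, and 2 (*Rxra* and *Rxrb*) did not overlap, beside 13.4%. Under AAV-PRDM16, 9 genes (0.0476%) were called, and without WT replicate 1, 2 or 3 the count was 0, 0 and 3, and without KO replicate 1, 2 or 3 it was 3, 1 and 2. There *Rxra* (log2 fold change 0.25, SE 0.08, adjusted p 0.206), *Rxrb* (-0.30, SE 0.10, adjusted p 0.226) and *Esrra* (-0.32, SE 0.13, adjusted p 0.319) made up both the 3 receptors under an unadjusted 0.05, beside 13.7% of all genes, and the 3 that did not overlap, beside 22.8%. DESeq2 and limma-voom each called *Rxra* alone under AAV-PRDM16 (adjusted p 0.0217 and 0.0442), and both called 0 receptors under AAV-GFP.

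Over both viruses, 412 genes (2.18%) were called between KO and WT. *Rxra*, *Rxrb* and *Esrra* were the 3 receptors under an unadjusted p of 0.05, beside 18.3% of all genes, and *Rxra* was the only receptor whose 6 and 6 libraries did not overlap, beside 2.71%. DESeq2 called 2 receptors, *Rxra* and *Rxrb*, and limma-voom called *Rxra*.

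AAV-PRDM16 against AAV-GFP gave 0 called genes (0%) in WT and 0 (0%) in KO by edgeR, where DESeq2 called 152 and 266. *Rxrg* was the only receptor under an unadjusted 0.05 in WT, beside 7.29% of all genes, and the only one without overlap, beside 14.2%. In KO, 0 receptors were under an unadjusted 0.05, beside 6.41% of all genes, and *Rxra* alone did not overlap, beside 9.43%, with a log2 fold change of 0.13 (adjusted p 1). For the virus over both genotypes, 7 genes (0.037%) were called, and the count was 352 without WT + AAV-GFP replicate 1, 211 without KO + AAV-GFP replicate 1 and 0 or 1 without any other library. There 0 receptors were under an unadjusted 0.05 or free of overlap, beside 9.09% and 0.561% of all genes. For the interaction of genotype and virus, 0 genes (0%) were called and 0 receptors had an unadjusted p under 0.05, beside 3.19%. DESeq2 and limma-voom called 0 receptors in these 4 comparisons.

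KO + AAV-PRDM16 against WT + AAV-GFP, the comparison of treated KO mice with control WT mice, gave 1 called gene (0.00529%). *Rxra* (log2 fold change 0.35, SE 0.08, adjusted p 0.355) and *Rxrb* (-0.23, adjusted p 0.616) had an unadjusted p under 0.05, beside 7.93% of all genes. *Rxra* was the only receptor without overlap, beside 13.2%. DESeq2 called *Rxra* here (adjusted p 0.00108) and limma-voom called 0 receptors. These comparisons share groups with one another and are not independent.

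The genes whose level was most like a receptor's over both cohorts were taken from 13706 genes, by the smaller of the Pearson correlations of log2 CPM over the 10 untreated and the 12 AAV libraries. *Rxrb* had the closest, *Atg4d* (0.986 and 0.973), *Tysnd1* (0.977 and 0.953) and *Stk11* (0.972 and 0.942). *Esrra* was followed by *Ppp5c* (0.936 and 0.934), *Fastk* and *Timm50*. *Pparg* was followed by *Vapa* (0.896 and 0.877), *Pole3* and *Ube2w*, *Rxrg* by *Mgat4b* (0.862 and 0.838), *Lsm2* and *Hacd1*, and *Esrrg* by *Ascc3* (0.871 and 0.832), *Lekr1* and *Ccdc138*. *Ppara* was followed by *Itpr1* (0.880 and 0.793), *Man2a2* and *Pdpk1*, and *Esrrb* by *Rrp12* (0.802 and 0.761), *Atp1b1* and *St3gal5*. *Rxra*, with *Tnip1* (0.703 and 0.825), *Rbms2* and *Adora1*, and *Ppard*, with *Ap1m1* (0.646 and 0.647), *Usp5* and *Nptxr*, had the weakest likeness. The genes like *Rxrb* and *Esrra* lay between the 76.1 and the 99.6 percentile of GC content, and *Ascc3*, *Lekr1* and *Ccdc138* lay at the 13.2, 0.536 and 21.3 percentile. *Rxrb* itself lies at the 98 percentile, *Esrra* at 53.8 and *Esrrg* at 14.6. These correlations describe points that share library, depth and base composition.

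Genes around the receptors were followed in lists of coactivators, corepressors, RXR partner receptors, ligand and retinoid handling, and PPAR and ERR targets. Of 16 coactivator genes, *Lpin1*, a phosphatidate phosphatase that also acts with PGC-1α on PPARα, was the only one called in any comparison. It averaged 418 ± 57.3 CPM in WT + AAV-GFP, 402 ± 85.6 in WT + AAV-PRDM16, 636 ± 80.8 in KO + AAV-GFP and 650 ± 185 CPM in KO + AAV-PRDM16 (SD, n = 3 each). *Lpin1* rose in KO over both viruses by 0.65 on the log2 scale (adjusted p 0.0475), where 1.06% of all genes were called higher, and the call held in 2 of 12 settings that left out a library. The median log2 fold change of the coactivators was -0.02 there, beside 0.01 over all genes, with 8 positive and 8 negative.

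*Ppargc1a*, which encodes PGC-1α, did not pass the test in the untreated (log2 fold change -0.65, adjusted p 0.382) or the AAV cohort (-0.12, adjusted p 0.794). *Ppargc1b* and *Perm1* had AAV log2 fold changes of -0.12 (adjusted p 0.559) and 0.24 (adjusted p 0.702). Among the untreated mice 13 of the 16 coactivators had a negative log2 fold change, 5 with an unadjusted p under 0.05 (beside 15.9% of all genes in either direction) and 0 called, and their median was -0.43 beside 0.04 over all genes. Scaling by library totals alone moved the untreated median of all genes to 0.21.

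Of 12 corepressor genes, 11 were tested and 0 were called in any comparison. Over both viruses 1 was under an unadjusted p of 0.05 in each direction, beside 18.3% of all genes in either direction, and the median was 0.06. *Wwtr1*, which encodes the PPARγ-repressing factor TAZ, had 0.26 (adjusted p 0.0993), and *Ncor1*, a scaffold of repressor complexes, had 0.09 (adjusted p 0.595). *Hdac3*, the deacetylase of these complexes, and *Gps2*, a subunit, had -0.17 (adjusted p 0.21) and -0.05 (adjusted p 0.801). Among the untreated mice 7 of the 11 corepressors were negative, with a median of -0.11. There 4 were lower and 1 was higher at an unadjusted p under 0.05, beside 15.9% of all genes in either direction. Of 13 RXR partner receptors, 11 were tested, 0 were called, and over both viruses 9 were negative, with a median of -0.14. The most abundant per length were *Nr4a1* (-0.59, adjusted p 0.609), the liver X receptors *Nr1h3* (-0.18, adjusted p 0.404) and *Nr1h2* (-0.14, adjusted p 0.452), and the thyroid hormone receptor *Thra* (-0.001, adjusted p 1). Of the 11 partners in untreated mice, 6 were positive and 5 negative, with a median of 0.29. At an unadjusted p under 0.05, 3 of these were lower and 1 was higher.

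For ligand and retinoid handling, 15 of 21 genes were tested in the AAV and 14 in the untreated cohort, and 0 were called. The lipases that release fatty acids had log2 fold changes over both viruses of -0.21 for *Pnpla2* (adjusted p 0.14), -0.08 for *Lipe* (adjusted p 0.638) and -0.32 for *Mgll* (adjusted p 0.116). The median of the list was -0.03, with 7 positive and 8 negative. At an unadjusted p under 0.05 there were 2 in each direction, beside 18.3% of all genes in either direction.

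Some target genes passed the test where no receptor did. All 47 PPAR target genes of the list were tested. Over both viruses 5 fell in KO at an adjusted p of 0.05 and 0 rose, where 1.12% of all genes were called lower. At an unadjusted p under 0.05 the lower genes numbered 24, beside 8.76% of all genes. Of the 47, 38 had a negative log2 fold change, and the median was -0.24 beside 0.01 over all genes.

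The 5 genes handle fatty acids or lipid droplets. *Acaa1b*, a peroxisomal thiolase, averaged 21.7 ± 2.94 CPM in WT + AAV-GFP, 28.4 ± 4.59 in WT + AAV-PRDM16, 15.9 ± 2.45 in KO + AAV-GFP and 12.6 ± 3.75 CPM in KO + AAV-PRDM16 (SD, n = 3 each), and fell by 0.81 on the log2 scale (adjusted p 0.0207). *Slc25a20*, the carnitine carrier of mitochondria, fell by 0.43 (adjusted p 0.0253), and *Decr1*, a reductase for unsaturated fatty acids, fell by 0.35 (adjusted p 0.0307). *Cidea*, a lipid droplet protein that is also on the brown adipocyte marker list, averaged 1430 ± 157 CPM in WT + AAV-GFP, 1610 ± 169 in WT + AAV-PRDM16, 1138 ± 56.9 in KO + AAV-GFP and 1171 ± 96.0 CPM in KO + AAV-PRDM16. *Cidea* fell by 0.39 (adjusted p 0.0378). *Acot2*, a mitochondrial thioesterase named after its value was seen, fell by 0.79 (adjusted p 0.0492), and its reads can be shared with the near-identical *Acot1*, which had -1.77 (adjusted p 0.0594).

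Of the 4 most abundant PPAR targets, *Cidea* was called and the other 3 were not. *Ucp1*, the uncoupling protein that makes heat, had a log2 fold change of -0.24 (adjusted p 0.612), *Fabp4*, a fatty acid carrier, had -0.12 (adjusted p 0.387), and *Acaa2*, a mitochondrial thiolase, had -0.12 (adjusted p 0.579). The median of the 47 was -0.16 under AAV-GFP, with 8 lower and 0 higher at an unadjusted p under 0.05, and -0.31 under AAV-PRDM16, with 24 lower and 0 higher. Of all genes, 9.18% and 13.7% were under that p in either direction. In WT mice AAV-PRDM16 against AAV-GFP gave 39 of 47 positive log2 fold changes with a median of 0.17, and in KO mice 26 of 47 with a median of 0.01. The interaction had a median of -0.17 with 40 negative, 3 of them at an unadjusted p under 0.05 (beside 3.19% of all genes in either direction) and 0 called. The untreated median was -0.05, with 21 positive, 26 negative and 0 called.

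Of 45 ERR target genes, 44 were tested in the AAV cohort, and 3 of the 45 (*Pdk4*, *Cpt1b* and *Acadm*) are also PPAR targets. Over both viruses 5 fell in KO and 0 rose, beside 1.12% of all genes called lower, and 24 were lower at an unadjusted p under 0.05, beside 8.76%. Of the 44, 43 had a negative log2 fold change, with a median of -0.18 beside 0.01 over all genes. *Perm1* was the exception. The 5 that fell encode subunits of respiratory chain complexes. *Cox5b* averaged 337 ± 10.9 CPM in WT + AAV-GFP, 345 ± 21.7 in WT + AAV-PRDM16, 231 ± 17.5 in KO + AAV-GFP and 273 ± 11.2 CPM in KO + AAV-PRDM16 (SD, n = 3 each), and fell by 0.44 on the log2 scale (adjusted p 0.00974). *Cox7a1* averaged 77.0 ± 5.71 and 83.5 ± 5.43 CPM in the WT groups and 47.0 ± 12.2 and 56.8 ± 0.897 CPM in the KO groups, in the same order of virus, and fell by 0.63 (adjusted p 0.0145).

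*Cox8b*, also on the brown adipocyte marker list, fell by 0.66 (adjusted p 0.0189) and *Cox5a* by 0.35 (adjusted p 0.0326). *Sdhb*, a subunit of succinate dehydrogenase named after its value was seen, fell by 0.31 (adjusted p 0.0488). *Atp5b* (-0.16, adjusted p 0.293) and *Atp5a1* (-0.21, adjusted p 0.205), both of ATP synthase and among the most abundant ERR targets, did not pass. The median of the list was -0.17 under AAV-GFP and -0.21 under AAV-PRDM16. Between untreated mice it was 0.28, with 33 of 45 positive and 0 called. At an unadjusted p under 0.05, 5 were lower there, beside 15.9% of all genes in either direction.

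**Figure D5:**
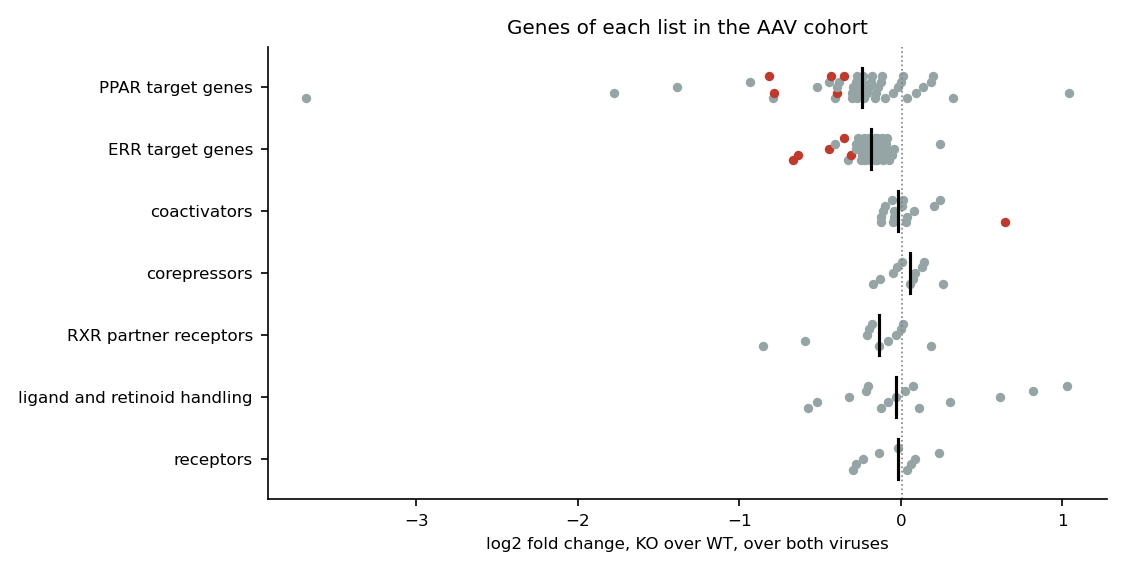
Log2 fold change of KO over WT for each gene of the lists, over both viruses in the AAV cohort, with genes called at an adjusted p of 0.05 in red, the others in grey, and a bar at each list's median. The PPAR targets (median -0.24) and ERR targets (median -0.18) lie mostly below 0, and the receptors lie on both sides.

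Both target lists kept their direction in each of the 21 other settings, with 36 to 41 PPAR targets and 40 to 45 ERR targets negative. These settings refit the same libraries and are not independent of one another. From the same samples, the paper reports that oxidative phosphorylation genes were higher in WT than in KO under each virus. The calls were less steady, since 0 PPAR and 0 ERR targets were called with a macrophage score as covariate or with scaling by library totals alone. With that covariate the medians were -0.257 for PPAR and -0.188 for ERR targets, and 0 of all genes were called. The macrophage markers were themselves higher in KO, so the covariate overlaps with genotype and its lost calls cannot decide about the targets. Leaving out a library left 0 to 6 PPAR and 2 to 4 ERR targets called lower. *Cox5b* and *Cox7a1* stayed called in all 12 settings that left out a library, *Cox8b* in 9, *Acaa1b* in 7, *Slc25a20* in 6, *Cidea* and *Decr1* in 4, *Cox5a* in 3, and *Acot2* and *Sdhb* in 1.

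Markers of other cell types differed between the same groups. The 6 macrophage markers, each with reads in every library, summed to 45.5 to 102 CPM in WT + AAV-GFP and 118 to 286 CPM in KO + AAV-GFP, and to 34.6 to 43.8 CPM in WT + AAV-PRDM16 and 56.2 to 76.7 CPM in KO + AAV-PRDM16. Of them 2 were called higher in KO over both viruses, beside 1.06% of all genes. Their part in the differences of the receptors and their targets was not tested beyond the covariate above, with which the log2 fold change was 0.21 for *Rxra*, -0.25 for *Rxrb* and -0.42 for *Esrra*. The brown adipocyte markers, 8 with reads in every library, summed to 3282 to 6586 CPM in WT and 3500 to 4387 CPM in KO libraries of the AAV cohort. Over both viruses 2 of the 8 (*Cidea* and *Cox8b*) were called lower, beside 1.12% of all genes. Of the 8, 7 had a negative log2 fold change, with a median of -0.39 beside 0.01 over all genes. At an unadjusted p under 0.05, 6 were lower, beside 8.76% of all genes. *Cidea* and *Ucp1* of this list are also PPAR targets and *Cox8b* is an ERR target. White adipocyte markers, 4 of 6 tested, summed to 28.7 to 44.0 CPM in WT + AAV-GFP and 89.2 to 145 CPM in KO + AAV-GFP, and to 13.5 to 63.6 CPM in WT + AAV-PRDM16 and 50.2 to 254 CPM in KO + AAV-PRDM16, with 0 called. The single white adipocyte markers did not all go this way. Of the 4 tested, 4 were higher in KO under AAV-GFP. Under AAV-PRDM16, 2 were higher and 2 lower (median log2 fold change -0.52), as they were over both viruses (median 0.06). For genotype over both viruses, 3 of 5 endothelial markers were higher at an unadjusted p under 0.05. Of 5 Schwann cell and nerve markers, 3 were lower and 1 was higher at that p. Of all genes, 18.3% were under it in either direction, and 0 of either list were called. T cell markers differed by virus, with all 6 lower under AAV-PRDM16 over both genotypes at an unadjusted p under 0.05. Of all genes, 9.09% were under that p in either direction. The T cell markers had a median log2 fold change of -3.1 and 0 called, and 0 of 4 B cell markers were called. The part of these cell types in the receptors' values was not tested. Skeletal muscle markers summed to 28.4 to 131 CPM in the AAV cohort. Over the untreated libraries the receptors' correlation with the muscle score ran from -0.399 (*Rxra*) to 0.466 (*Esrrb*), over 10 points.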

How the data were processed

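The authors prepared mRNA libraries from BAT, 1 per mouse, with the SureSelect XT HS2 kit. The submitters' processing notes name bcl2fastq 2.20, Trimmomatic 0.36, HISAT2 and the build GRCm38.p6. The counting tool, the annotation, and the handling of strand and duplicate reads are not given in the sources used here. The authors deposited raw counts, as whole numbers per Ensembl gene, in 1 table per cohort, with no normalization.

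GENCODE M21 symbols and exon lengths matched 55227 of 55487 identifiers. Genes were filtered by filterByExpr, which left 17869 (untreated) and 18899 (AAV), and tested by the quasi-likelihood test of edgeR 4.0.16 (R 4.3.3) on TMM-scaled counts, two-sided. Adjustment was by Benjamini-Hochberg across all tested genes, with calls at 0.05. The 12 AAV libraries were fitted together, so all 4 groups share 1 estimate of spread. Log2 CPM for correlations used a prior count of 2. Alternatives used DESeq2 1.42.0, limma-voom (limma 3.58.1), RLE size factors, library totals, no filter, GC and length correction (splines of 4 degrees of freedom), covariates, a replicate block, and each library left out. The macrophage covariate and the list counts under each alternative were added after seeing the data. The scripts were tested on simulated data. Intervals are 95%.

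Groups came from the sample labels. The receptors and lists were chosen with earlier results of these data known. From each list, called genes (up to 4 in a comparison) and the 4 most abundant by TPM were named, and for each receptor the 3 genes most like it, leaving out provisional names. A gene that this rule names is not reported here. Promoter windows came from RefSeq. Python 3.11.15 and matplotlib 3.10.9 drew the figures.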

Additional observations from a re-analysis of the deposited data

Results flagged for a closer look

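The *Esrrg* level of untreated KO replicate 1 stood apart from its group. It was 16.7 CPM against 4.88 to 7.76 CPM in the other 4 KO libraries, and its gap to the nearest of them was 0.757 of the group's range, above the critical value of 0.71 for 5 samples. This was 1 of 36 group extremes examined over the 9 receptors, where chance passes about 1 in 20 groups. The same library had 11.65 CPM of *Cpeb2*. Without it the untreated log2 fold change of *Esrrg* was -1.79 (adjusted p 0.16 by edgeR).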

How the results depend on the processing

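The main count of receptors called was 0 in every comparison, and it stayed 0 in every setting that left out a library. Other settings gave 2 in the untreated cohort at 2-fold with an adjusted p up to 0.5, 1 by DESeq2 and 1 by limma-voom under AAV-PRDM16, and 1 by DESeq2 for KO + AAV-PRDM16 against WT + AAV-GFP. For genotype over both viruses they gave 2 by DESeq2, 1 with RLE size factors and 1 by limma-voom. PPAR targets called lower for genotype, 5 as reported, numbered 16 by DESeq2, 12 by limma-voom, 3 without the low-count filter, 3 after GC and length correction, 3 with a muscle covariate, 0 with library totals, 0 with a macrophage covariate and 0 to 6 with a library left out. ERR targets, also 5, numbered 16, 15, 3 (muscle), 0 (library totals), 0 (macrophage) and 2 to 4. The cause was not tested. Over 1422 single receptor values 42 moved by more than their standard error and 7 passed the threshold. The count of all genes called for genotype, 412, was 1584 by DESeq2, 1269 by limma-voom, 41 with library totals, 250 without the filter, 240 after GC and length correction, 234 with the muscle and 0 with the macrophage covariate, and 89 to 590 with a library left out. Under AAV-GFP the 10 became 243 by DESeq2, and under AAV-PRDM16 the 9 became 619 by DESeq2 and 545 by limma-voom. For the virus over both genotypes the 7 became 602 by DESeq2, 144 without the filter, 76 with RLE size factors and 0 to 352 with a library left out.

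Replicate numbers did not pair the samples, since same-numbered libraries had correlations of -0.292 to 0.111 (untreated) and -0.0912 to 0.154 (AAV). A fit with the replicate block called 0 receptors in each comparison, with an adjusted p of 0.0771 for *Rxra*, and 344 genes for genotype.

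A p that misses the threshold does not show equal levels. *Esrrb* is limited by 64 to 314 reads.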
